A study of Mus musculus with 12 samples.

Results

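The chaperones examined here are the heat-shock proteins, their co-chaperones, the cytosolic chaperonin and the folding enzymes of the endoplasmic reticulum (ER) in the liver of fed and fasted mice. They were chosen by name alone, as every array probe whose gene name begins with or equals one of a fixed set of chaperone names (Hsp, Hsc70, Dnaj, Cct2 to Cct8, Tcp1, Pdia, Grp58, Erp, P4hb, Canx, Calr, Tra1, Stip1, St13, Xbp1, Ddit3, Atf4, Atf6 and Herpud). This gave 47 of 20280 probes, for 39 genes. Of these probes, 30 (23 genes) belonged to chaperones of the cytosol, 12 (11 genes) to the ER and 2 (2 genes) to mitochondria. A single probe measured the stress regulator Atf4, and 2 probes carried a matching name without coding for a chaperone, namely perlecan (Hspg2) and the fatty-acid elongation enzyme Hacd3, which the array lists as Hspc121. Older names stood for 14 of the probes, such as Grp58 for Pdia3 and Tra1 for Hsp90b1.

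Male FVB mice of 6 weeks were killed fed, or after 12, 24 or 72 hours without chow, and each group of 3 arrays held RNA of 6 livers, pooled by 2 per array. All mice stayed in metabolic cages, and per the labels an infrared lamp kept them warm from 24 hours onwards, so that length of fasting and warming cannot be told apart. Every array compared Cy3-labelled liver RNA with the same Cy5-labelled pool of 6 fed livers, and the values are log2 of sample over that reference, with dyes never exchanged. The spread between arrays is therefore one between pools of mice and not between single mice.

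Chaperones bind proteins that are not yet, or no longer, folded. In the cytosol, the HSP70 proteins take up unfolded chains with the help of DNAJ partners, HSP90 completes the folding of many signalling proteins, and the chaperonin CCT, a ring of related subunits, folds actin and tubulin. Heat shock factor 1 drives many of these genes when unfolded proteins accumulate. The ER, in which the hepatocyte folds the plasma proteins it secretes, has its own HSP70 (Hspa5) and HSP90 (Hsp90b1), lectin chaperones and protein disulfide isomerases, and its own control, the unfolded-protein response.

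All 47 probes were tested at each fasting time, and all but Dnajc7 (11 arrays) were well above background on all 12 arrays. None was saturated. Replicate 2 at 12 hours and replicate 3 at 24 hours stood apart from the rest. Their median sample signal was 4.72 and 3.50 times the local background, against 5.34 to 10.6 on the other arrays. Over all probes, their log2 ratios correlated negatively with the other arrays of their own group (r from -0.18 to -0.15 and from -0.25 to -0.15, across probes, which are not independent), but positively with each other (r = 0.62). These low-signal arrays had been quantified on the same day as fed replicate 1, the other 12- and 24-hour arrays on a day without any fed array, and fed replicates 2 and 3 on the day of the 72-hour arrays. Counts of calls are therefore given with all arrays and without both low-signal arrays, and the words "without the low-signal arrays" mean both throughout.

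The low-signal arrays lay below their group for most chaperones. Replicate 2 at 12 hours had the lowest value of its group in 34 of the 45 chaperone probes with values on all 3 arrays (75.6%), compared with 47.5% of all probes tested, and lay a median 1.57 log2 units below the mean of the other 2 arrays. At 24 hours, replicate 3 was the lowest of its group in 33 of 46 chaperone probes (71.7%), compared with 42.8% of all probes, by a median of -1.19. Over all probes the same median difference was 0.00 and 0.04.

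**Figure D1:**
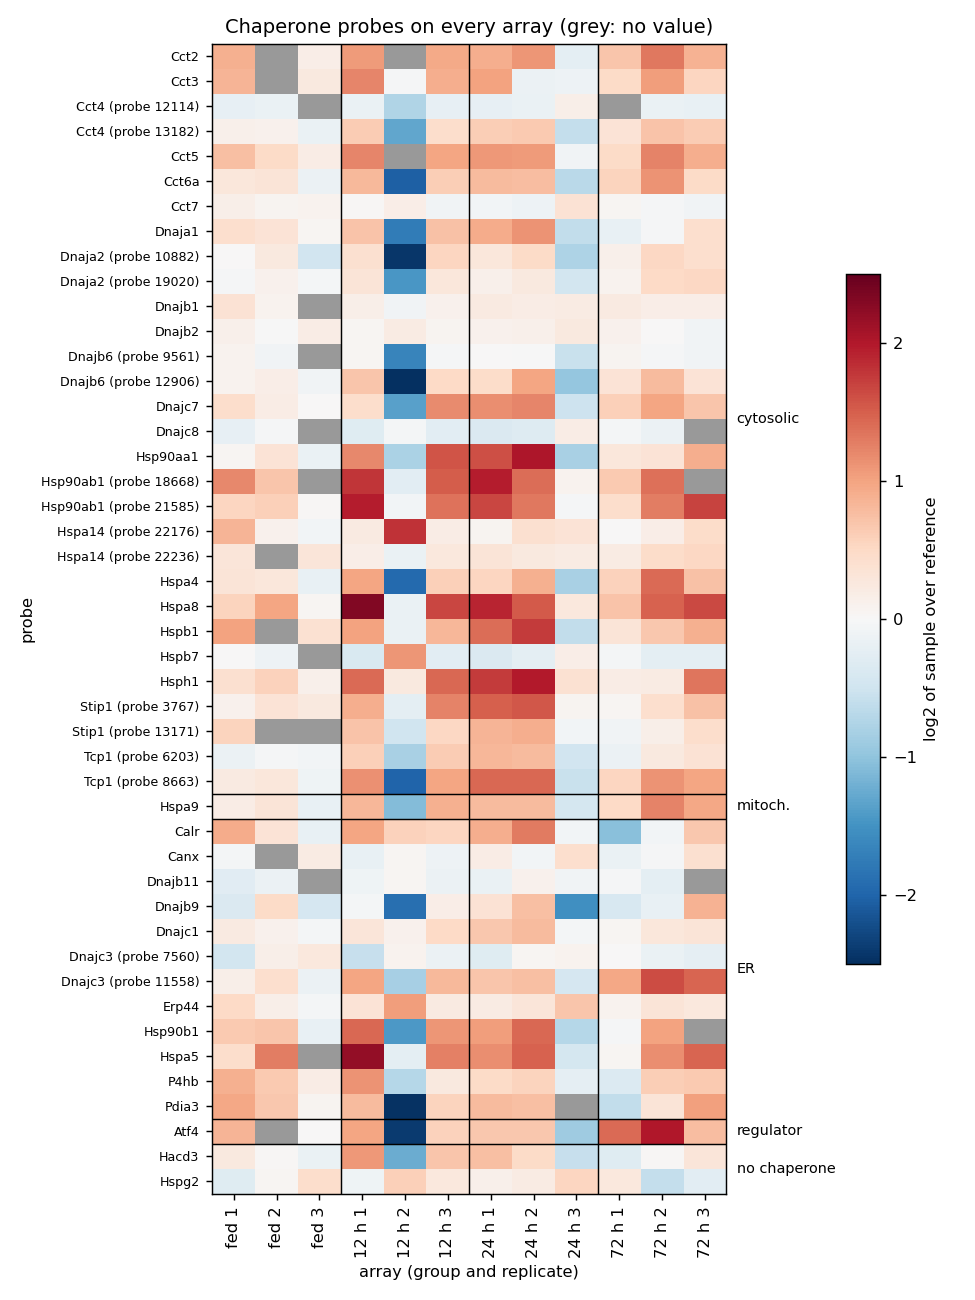
Log2 of sample over reference for 46 of the 47 probes (rows, grouped by compartment) on each of the 12 arrays (columns); red is above and blue below the reference, and grey marks values set to missing. Replicate 2 at 12 hours and replicate 3 at 24 hours are blue for most cytosolic probes and for Hspa9, where the other arrays of these groups are red.

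With all arrays weighted equally, no chaperone probe was called. The number of probes with an adjusted p under 0.05 in limma and at least a 1.4-fold change was 0 of 47 at 12, 24 and 72 hours, against a background of 0.00497%, 0.00497% and 0.00996% of all probes tested. At an unadjusted p under 0.05 the number was 0, 0 and 1, against 3.92%, 3.04% and 1.55% of all probes, and the smallest adjusted p of any chaperone was 0.956. The log2 fold changes lay between -0.93 and 0.75 at 12 hours, between -0.30 and 1.01 at 24 hours and between -0.51 and 1.20 at 72 hours. Levels were higher than in fed liver for 23, 32 and 31 of the 47 probes, with medians of -0.02, 0.16 and 0.10, where the median of all probes was -0.01, 0.00 and -0.01. Array weights estimated by limma were 0.0368 and 0.0986 for the low-signal arrays. For fed replicates 1, 2 and 3 they were 0.546, 7.15 and 1.57. The fed side thus rested mostly on replicate 2 where it had a value, and 24.7% of its spots were outliers set to missing. With these weights, 13 of 47 probes were called at 12 hours (12 higher and 1 lower, background 9.53%). At 24 hours 17 were called (all higher, background 10.5%) and at 72 hours 5 (all higher, background 4.11%).

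Without both low-signal arrays, part of the cytosolic chaperones rose at 12 and 24 hours, with Hsp90aa1, Hspa8, Stip1 (probe 3767 alone) and Tcp1 among them at both times. The test then called 6 of 47 probes at 12 hours (12.8%; background 2.59%), 13 at 24 hours (27.7%; background 8.81%) and 1 at 72 hours (2.13%; background 0.836%). All of them were higher than in fed liver, against 1.7%, 5.21% and 0.686% of all probes called higher. With either low-signal array left out alone, 0 of 47 were called in each comparison. Of the 13 at 24 hours, 11 were cytosolic and 1 belonged to the ER. The median log2 fold change of the cytosolic probes was 0.51, 0.60 and 0.19 at 12, 24 and 72 hours, and that of the ER probes 0.14, 0.33 and 0.04. Where every array had a value, the remaining fasted arrays all lay above all fed arrays for 22 of 32 probes at 12 hours (background 24.2%) and for 22 of 32 at 24 hours (background 27.5%). The 72-hour arrays did so for 8 of 31 probes (background 9.2%).

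The 12- and 24-hour arrays that remain share no quantification day with a fed array, so for them day and fasting cannot be told apart. With day as a block, which rests these comparisons on the low-signal arrays and fed replicate 1, the calls turned round, to 16 of 46 probes lower and 0 higher at 12 hours (background 12.1% lower) and 5 lower and 0 higher at 24 hours (background 5.32% lower). At 72 hours, a comparison within a day was possible and gave median log2 fold changes of 0.32 (cytosolic) and -0.05 (ER). It called 0 of 46 chaperone probes and only 9 of all 19185 probes.

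**Figure D2:**
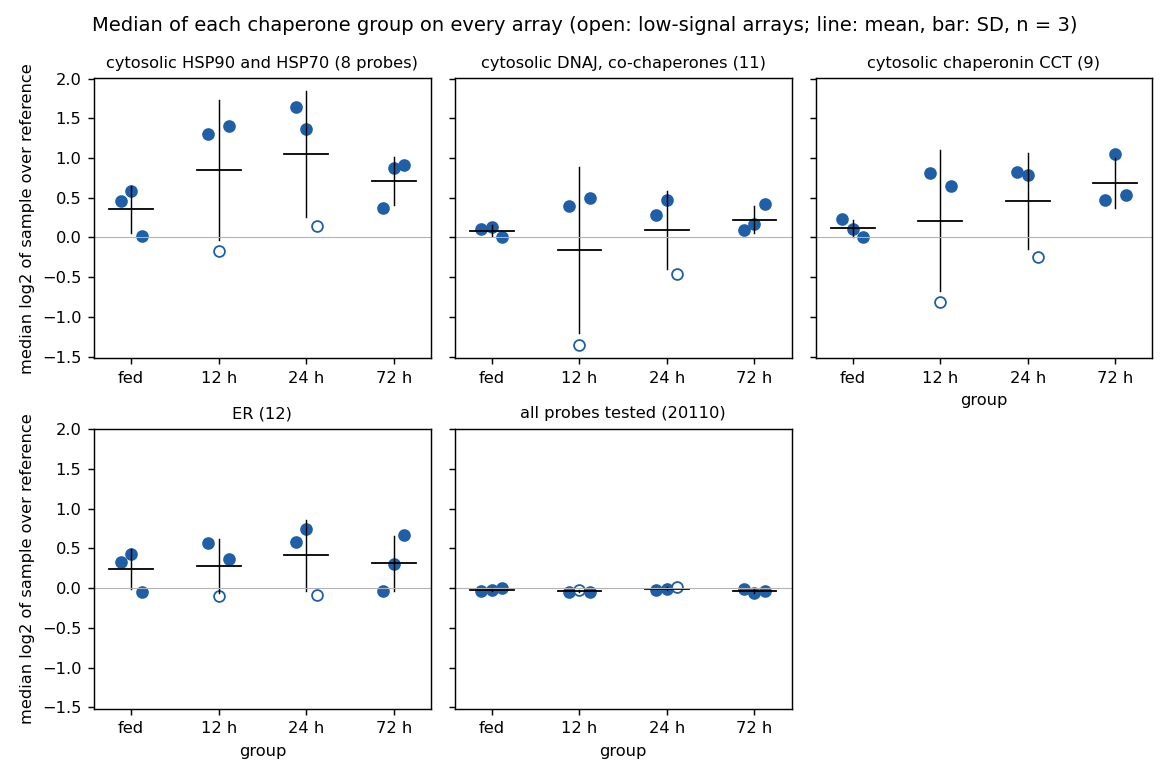
Median log2 of sample over reference of the probes of each chaperone group, one point per array, for fed, 12-, 24- and 72-hour livers; open points are the low-signal arrays, the horizontal line is the mean and the vertical bar the SD of 3 arrays. The HSP90 and HSP70 group reaches 1.31 to 1.64 on the 4 other arrays of 12 and 24 hours against 0.02 to 0.58 in fed liver, while the median of all 20110 probes stays near 0 on every array. Each median covers the probes with a value on that array.

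The cytosolic HSP90 and HSP70 proteins (8 probes, 6 genes) had the highest group median on every 12- and 24-hour array except replicate 2 at 12 hours. It was 0.46, 0.58 and 0.02 in the fed arrays, 1.31, -0.17 and 1.398 at 12 hours, 1.64, 1.36 and 0.15 at 24 hours, and 0.37, 0.87 and 0.91 at 72 hours. Hsp90aa1, the stress-inducible form of HSP90, measured 0.05, 0.35 and -0.17 in the fed arrays, 1.21, -0.79 and 1.56 at 12 hours, 1.61, 2.03 and -0.81 at 24 hours, and 0.28, 0.33 and 0.91 at 72 hours. At 12 and 24 hours it was thus higher than in any fed array in 2 of 3 arrays and lower than in all of them in the low-signal one. Its log2 fold change was 0.59 ± 0.72 (SE) at 12 hours and 0.87 ± 0.72 at 24 hours with all arrays (adjusted p = 0.956 and 1.00, limma). Without the low-signal arrays it was 1.31 ± 0.22 and 1.74 ± 0.22, or 2.48- and 3.35-fold (adjusted p = 0.0232 and 0.00411), and 0.43 ± 0.20 at 72 hours (adjusted p = 0.381).

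Hspa8, the constitutive cytosolic HSP70, measured 0.56, 0.98 and 0.04 in fed liver, 2.31, -0.17 and 1.68 at 12 hours, 1.90, 1.53 and 0.27 at 24 hours, and 0.72, 1.47 and 1.66 at 72 hours. Apart from the low-signal arrays and replicate 1 at 72 hours, all fasted arrays lay above the highest fed array, at 1.47 or more. With all arrays its log2 fold change was 0.75, 0.71 and 0.76 at 12, 24 and 72 hours (SE 0.61, adjusted p at least 0.956). It rose, with the low-signal arrays left out, 2.77-fold at 12 and 2.28-fold at 24 hours (adjusted p = 0.0418 at both), whereas the 1.69-fold difference at 72 hours did not pass (adjusted p = 0.272).

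Hsph1, the HSP110 protein that exchanges nucleotide on HSP70, measured 0.39, 0.58 and 0.12 in the fed arrays, 1.41, 0.25 and 1.43 at 12 hours, 1.75, 1.98 and 0.38 at 24 hours, and 0.18, 0.20 and 1.33 at 72 hours. Its 24-hour difference was the highest of all chaperones with all arrays (log2 fold change 1.01, unadjusted p = 0.0569). It rose 2.83-fold at 24 hours without the low-signal arrays (adjusted p = 0.0166) and missed the threshold at 12 hours (2.08-fold, adjusted p = 0.0772). At 72 hours replicates 1 and 2 lay within the fed range and replicate 3 above it.

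Hsp90ab1, the constitutive HSP90, measured, at probe 21585, 0.53, 0.59 and 0.02 in fed liver, 1.96, -0.06 and 1.36 at 12 hours, 1.67, 1.32 and -0.02 at 24 hours, and 0.45, 1.28 and 1.69 at 72 hours. This probe did not pass at any time without the low-signal arrays either, at 2.43-, 2.16- and 1.69-fold (adjusted p = 0.0604, 0.0516 and 0.279, limma). The second probe, 18668, was then at 1.63-, 1.66- and 1.05-fold (adjusted p = 0.187, 0.121 and 0.953). With all arrays the log2 fold changes were 0.70, 0.61 and 0.76 at probe 21585, but 0.07, 0.20 and 0.07 at probe 18668. Hspa4, another HSP110 protein, was at 0.57, 1.41 and 0.73 after 72 hours, above all fed arrays (0.31, 0.27 and -0.18), with a log2 fold change of 0.77 ± 0.68 with all arrays (adjusted p = 1.00) and the same value without the low-signal arrays (adjusted p = 0.142). The array's Hsp70-4 was read as Hspa14, a ribosome-associated HSP70, by a RefSeq synonym, and its 2 probes may measure a related gene. They had log2 fold changes between -0.22 and 0.44 over the 3 times with all arrays, and between -0.10 and 0.09 without the low-signal arrays.

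**Figure D3:**
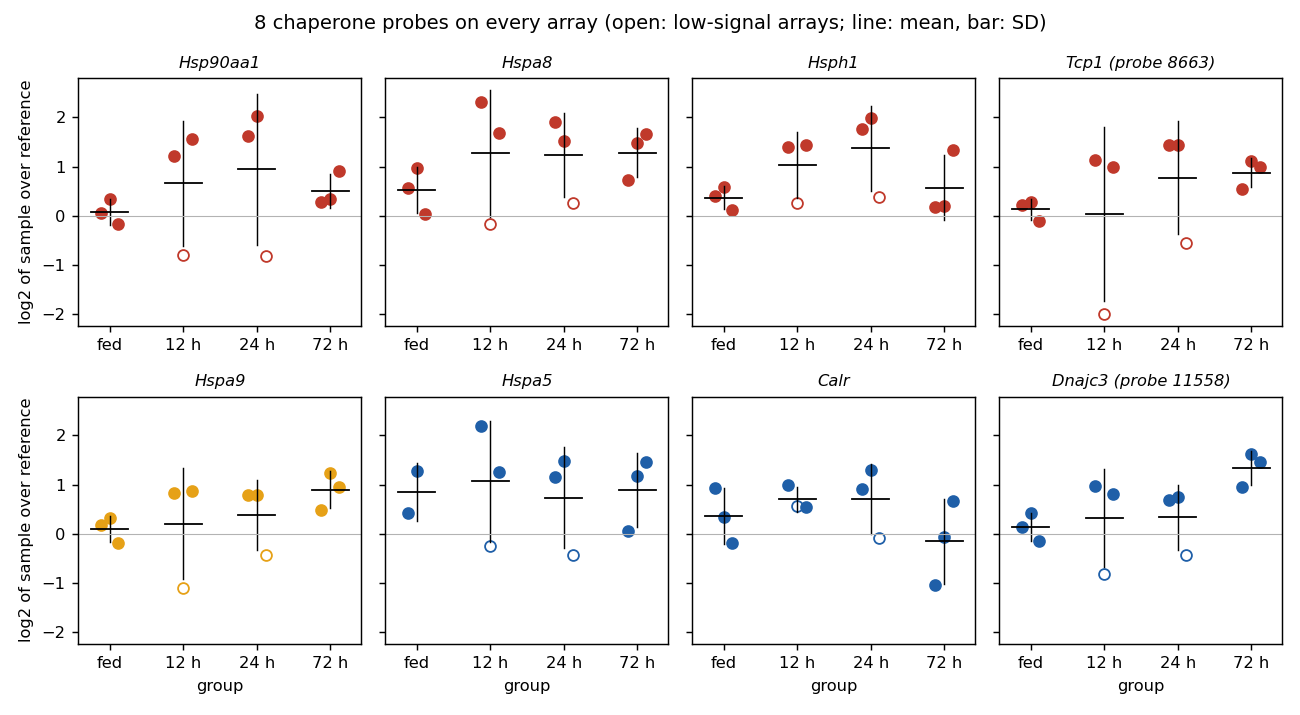
Log2 of sample over reference on each array for 8 probes of cytosolic (red), mitochondrial (yellow) and ER (blue) chaperones; open points are the low-signal arrays, lines and bars are mean and SD of the arrays with a value. For Hsp90aa1, Hspa8 and Hsph1 the filled points of 12 and 24 hours lie above the fed points and the open ones below the filled ones, whereas Dnajc3 (probe 11558) is highest at 72 hours and Calr overlaps at every time.

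The DNAJ proteins and other co-chaperones (11 probes, 8 genes) differed among themselves. Their group median was 0.11, 0.14 and 0.01 in the fed arrays, 0.40, -1.36 and 0.49 at 12 hours, 0.28, 0.47 and -0.46 at 24 hours, and 0.09, 0.17 and 0.41 at 72 hours. Dnaja1, an HSP40 partner of Hspa8, measured 0.42, 0.34 and 0.04 in fed liver, 0.71, -1.74 and 0.74 at 12 hours, 0.94, 1.13 and -0.61 at 24 hours, and -0.18, -0.03 and 0.42 at 72 hours. It rose 1.70-fold at 24 hours without the low-signal arrays (adjusted p = 0.0254), and with all arrays its log2 fold changes of -0.36, 0.22 and -0.20 did not pass. Stip1, which joins HSP70 to HSP90, behaved likewise at probe 3767, with 0.11, 0.33 and 0.24 in fed liver and 1.49, 1.56 and 0.06 at 24 hours. That probe rose 1.81-fold at 12 hours (adjusted p = 0.0386) and 2.46-fold at 24 hours (adjusted p = 0.00556) without the low-signal arrays, against log2 fold changes of 0.41 and 0.81 with all arrays.

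The brighter probe of Stip1 in fed liver, 13171, had a value on only 1 of 3 fed arrays. Without the low-signal arrays its log2 fold changes were 0.06, 0.31 and -0.39 at 12, 24 and 72 hours and did not pass. Its mean log2 fold change over the 3 times was among the 2 lowest of the cytosolic genes with all arrays (-0.23). The other gene at this end was Dnajb6, an HSP40 protein that suppresses aggregation, at probe 9561 (-0.24). That probe measured 0.08 and -0.09 in fed liver, 0.05, -1.64 and -0.03 at 12 hours, 0.00, -0.01 and -0.55 at 24 hours, and 0.06, -0.03 and -0.09 at 72 hours. Apart from the low-signal arrays, its values lay between -0.09 and 0.08. Dnajc7, a co-chaperone of both HSP70 and HSP90, rose 1.98-fold at 24 hours without these arrays (adjusted p = 0.0203), and the second Dnajb6 probe, 12906, rose 1.58-fold (adjusted p = 0.0472). With all arrays the log2 fold change at 24 hours was 0.42 for Dnajc7 and 0.10 for this Dnajb6 probe, which was at -0.50 at 12 hours. Both probes of Dnaja2, another HSP40 protein, measured -2.43 and -1.46 on replicate 2 at 12 hours, and without the low-signal arrays their log2 fold changes lay between 0.17 and 0.55 and did not pass. Dnajb1, Dnajb2 and Dnajc8 (the array's Hsp40, assigned by its description alone) had log2 fold changes between -0.23 and 0.07 over all 3 times with and without the low-signal arrays.

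Of the chaperonin CCT, 7 of the 8 ring subunits were represented, with 9 probes. The group median was 0.23, 0.11 and 0.01 in fed liver, 0.81, -0.81 and 0.64 at 12 hours, 0.82, 0.78 and -0.24 at 24 hours, and 0.47, 1.05 and 0.53 at 72 hours, when all 3 arrays lay above all fed arrays. Each median covers the probes with a value on that array, and Cct2 and Cct3, for example, had none on fed replicate 2. Tcp1, the founding subunit, measured at probe 8663 0.23, 0.29 and -0.11 in fed liver, 1.14, -2.003 and 0.98 at 12 hours, 1.43, 1.43 and -0.55 at 24 hours, and 0.54, 1.11 and 0.98 at 72 hours. It rose 1.90-fold at 12 hours (adjusted p = 0.0279) and 2.46-fold at 24 hours (adjusted p = 0.00516) without the low-signal arrays, and its second probe passed at both times as well. With all arrays the log2 fold changes of probe 8663 were -0.09, 0.64 and 0.74 at 12, 24 and 72 hours. At 72 hours, without the low-signal arrays, probe 8663 missed the threshold at 1.68-fold (adjusted p = 0.0573, limma). The second probe, 6203, was at 1.17-fold (adjusted p = 0.484).

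The other subunits were less uniform. Without the low-signal arrays, Cct4 at probe 13182 rose 1.53-fold at 24 hours (adjusted p = 0.0255; log2 fold change 0.20 with all arrays), while its probe 12114 had log2 fold changes between -0.01 and 0.01. Cct2, Cct5 and Cct6a were at 0.48, 0.61 and 0.64 at 24 hours, Cct3 at -0.11, and none of these 4 passed. With all arrays they were at 0.06, 0.22, 0.16 and -0.29. Cct7 was at -0.13, -0.20 and -0.12 at 12, 24 and 72 hours, and with all arrays at -0.06, -0.04 and -0.12, without passing the test.

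The small heat-shock proteins had 2 probes. Hspb1, which holds unfolding proteins in solution without ATP, measured 1.01 and 0.39 on the fed arrays with a value, 1.01, -0.16 and 0.84 at 12 hours, 1.398, 1.74 and -0.61 at 24 hours, and 0.32, 0.67 and 0.89 at 72 hours. Its log2 fold change at 24 hours was 0.14 ± 0.62 with all arrays and 0.87 ± 0.24 (1.83-fold, adjusted p = 0.0468) without the low-signal arrays. At 12 and 72 hours the values overlapped those of fed liver. Hspb7, known from heart and muscle, had log2 fold changes between -0.27 and 0.21.

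The binding site of heat shock factor 1 is made of inverted repeats of the unit GAA. The stretches that match it are shown for genes of the cytosolic group that were called at 24 hours without the low-signal arrays. Promoter sequence from RefSeq (build GRCm38.p6) was at hand for 33 of the 39 genes, but not, for example, for Hspa8, Hsp90aa1, Hsp90ab1, Cct4 and Hspa9. In the 250 bases before the annotated start, on either strand, the 3-unit form, TTC, GAA and TTC with 2 bases between units, was found in 1 of 19 cytosolic genes, Dnajb6. It was found in 0.514% of all 27025 genes, or 0.466% of all 32851 promoters. The 2-unit form GAA, 2 bases, TTC was found in Cct2, Dnaja1, Dnajb6 and Hspb1 (7.73% of all genes), and the form TTC, 2 bases, GAA in Cct5, Dnajb6 and Hsph1 (8.11%). Both 2-unit forms read the same on either strand and lie within the 3-unit form. Capitals mark the match, on the strand of the gene, 5′ to 3′:
Dnajb6, chr5:29735832-29735884, plus strand, 3 units: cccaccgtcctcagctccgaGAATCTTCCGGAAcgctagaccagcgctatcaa
Hsph1, chr5:149636340-149636391, minus strand, 2 units: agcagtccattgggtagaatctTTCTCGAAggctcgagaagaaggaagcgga
Hspb1, chr5:135887780-135887831, plus strand, 2 units: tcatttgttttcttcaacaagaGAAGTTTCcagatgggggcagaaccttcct
Dnaja1, chr4:40722322-40722373, plus strand, 2 units: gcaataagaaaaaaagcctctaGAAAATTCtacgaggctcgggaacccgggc
Hspb1 holds a second 2-unit match, 97 to 90 bases before the start, within the stretch shown but not in capitals. A match is a description of these letters only. Of the 6 cytosolic genes with a match, 4 were called at 24 hours without the low-signal arrays (Dnaja1, Dnajb6, Hspb1 and Hsph1), while Cct2 and Cct5 were not. Of the 13 with a promoter but no match, 3 were called (Dnajc7, Stip1 and Tcp1). Dnajb6 and Stip1 were called only at probes 12906 and 3767, and not at their brighter probes. Of all probes, 8.81% were called in that fit, where quantification day and fasting cannot be told apart. The difference between genes with and without a match was not tested.

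Hspa9, the mitochondrial HSP70 that pulls imported proteins into the matrix, had a value on every array. It measured 0.19, 0.32 and -0.19 in fed liver, 0.83, -1.09 and 0.88 at 12 hours, 0.80, 0.79 and -0.44 at 24 hours, and 0.49, 1.25 and 0.96 at 72 hours. The 72-hour arrays all lay above the fed arrays. Its log2 fold change was 0.10, 0.28 and 0.79 (SE 0.51) with all arrays and 0.75, 0.69 and 0.79 (SE 0.20, 0.20 and 0.18) without the low-signal arrays, at which it missed the threshold each time (adjusted p = 0.073, 0.0556 and 0.0778).

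The chaperones and folding enzymes of the ER had 12 probes for 11 genes. Their median was 0.33, 0.43 and -0.05 in the fed arrays, 0.56, -0.09 and 0.37 at 12 hours, 0.58, 0.75 and -0.09 at 24 hours, and -0.03, 0.30 and 0.67 at 72 hours, with overlap at each time. With all arrays, 6, 8 and 7 of the 12 probes lay above fed liver. Without the low-signal arrays, 0, 1 and 1 of the 12 passed at 12, 24 and 72 hours, compared with 5, 11 and 0 of the 30 cytosolic probes. The background was 2.59%, 8.81% and 0.836% of all probes, and the 1 of 12 at 24 hours lies near it. Whether the difference between both compartments exceeds the spread was not tested.

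A composite element, CCAAT and CCACG with 9 bases between them, is the known ER stress response element (ERSE), through which ATF6 and XBP1 act. The sequences are shown because 5 ER genes and no cytosolic gene hold them. It was found on either strand in the 250 bases before the start in 5 of the 11 ER genes, 0 of the 19 cytosolic genes and 0.13% of all 27025 genes. Capitals mark the whole element with its spacer, on the strand of the gene, where an element that runs the other way begins with CGTGG and ends with ATTGG:
Hspa5, chr2:34772005-34772063, plus strand: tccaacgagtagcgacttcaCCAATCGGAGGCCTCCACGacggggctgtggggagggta
Hsp90b1, chr10:86705618-86705676, minus strand: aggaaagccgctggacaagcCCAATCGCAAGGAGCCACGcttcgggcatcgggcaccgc
Hsp90b1, chr10:86705513-86705571, minus strand: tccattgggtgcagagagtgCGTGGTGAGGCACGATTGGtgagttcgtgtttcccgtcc
Calr, chr8:84847055-84847113, minus strand: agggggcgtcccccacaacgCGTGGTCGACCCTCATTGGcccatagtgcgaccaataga
Canx, chr11:50325780-50325838, minus strand: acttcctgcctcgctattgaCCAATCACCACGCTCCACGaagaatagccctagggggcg
Dnajc3, chr14:118937807-118937865, plus strand: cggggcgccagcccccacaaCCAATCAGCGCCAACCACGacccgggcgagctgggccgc
Hsp90b1 holds the element in both directions. In Hspa5 it lies closest to the start, 65 to 47 bases before it. The 6 probes of the 5 genes with the element had median log2 fold changes of 0.08, 0.14 and 0.02 at 12, 24 and 72 hours with all arrays, and the 6 probes of the other ER genes -0.11, 0.18 and 0.05. Without the low-signal arrays the medians were 0.58, 0.52 and 0.02 with the element, where 0, 0 and 1 of the 6 probes were called, and 0.11, 0.19 and 0.05 without it, where 0, 1 and 0 were called. Beside these stand 2.59%, 8.81% and 0.836% of all probes, and 6 probes are too few to set against such shares. The difference between both sets was not tested.

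Hspa5, the ER HSP70 also known as BiP, measured 0.43 and 1.27 on the fed arrays with a value, 2.19, -0.24 and 1.25 at 12 hours, 1.15, 1.48 and -0.43 at 24 hours, and 0.05, 1.17 and 1.46 at 72 hours. Its fed values overlapped those of every fasted group, also without the low-signal arrays. The log2 fold change was 0.21, -0.12 and 0.04 with all arrays (SE 0.76, adjusted p at least 0.978), and 0.87 ± 0.46, 0.46 ± 0.46 and 0.04 ± 0.42 without the low-signal arrays (adjusted p at least 0.300). Hsp90b1, the ER HSP90, measured 0.66, 0.69 and -0.18 in fed liver, 1.43, -1.44 and 1.11 at 12 hours, 1.04, 1.43 and -0.72 at 24 hours, and -0.03 and 1.00 on the 72-hour arrays with a value. Without the low-signal arrays the 12- and 24-hour values lay above fed liver, at 1.85- and 1.80-fold, but did not pass (adjusted p = 0.153 and 0.118).

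Calr, a lectin chaperone and calcium store, measured 0.94, 0.35 and -0.19 in fed liver, 1.00, 0.57 and 0.54 at 12 hours, 0.91, 1.30 and -0.08 at 24 hours, and -1.05, -0.07 and 0.67 at 72 hours. Its log2 fold change of -0.51 ± 0.46 at 72 hours was the lowest of all members at that time and overlapped fed liver (adjusted p = 1.00). At 12 and 24 hours the log2 fold changes were 0.34 and 0.35 with all arrays and 0.40 and 0.74 without the low-signal arrays, and did not pass. Canx, its membrane-bound relative, had log2 fold changes between -0.24 and 0.09.

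The disulfide isomerases Pdia3 and P4hb had the lowest mean log2 fold changes over the 3 times among the ER genes with all arrays (-0.35 and -0.31). Pdia3 measured 0.96, 0.67 and 0.06 in fed liver, 0.79, -2.47 and 0.56 at 12 hours, 0.79 and 0.75 on the 24-hour arrays with a value, and -0.61, 0.33 and 1.03 at 72 hours. Its 12-hour log2 fold change was -0.93 ± 0.76 with all arrays and 0.11 ± 0.38 without the low-signal arrays, and at 24 hours it was 0.21 in both fits. P4hb measured 0.88, 0.66 and 0.19 in fed liver, 1.12, -0.72 and 0.24 at 12 hours, 0.48, 0.56 and -0.23 at 24 hours, and -0.35, 0.61 and 0.66 at 72 hours, overlapping at each time. Its log2 fold changes of -0.36, -0.30 and -0.27 were 0.10, -0.05 and -0.27 without the low-signal arrays. The highest means over the 3 times were those of Dnajc1 and Erp44 (0.24 and 0.19). Dnajc1, a DNAJ protein of the ER membrane, measured 0.22, 0.12 and -0.06 in fed liver and 0.68, 0.78 and -0.05 at 24 hours, and rose 1.56-fold at 24 hours without the low-signal arrays (adjusted p = 0.018), against a log2 fold change of 0.38 with all arrays. Erp44, which retains proteins with free thiols, was highest on the low-signal arrays (1.04 at 12 and 0.68 at 24 hours, against -0.04 to 0.50 in fed liver), and its log2 fold changes of 0.33, 0.20 and 0.03 were 0.08, 0.06 and 0.03 without them.

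Dnajc3, which inhibits the eIF2alpha kinases, was the only member past an unadjusted p of 0.05 with all arrays. At probe 11558 it measured 0.14, 0.43 and -0.14 in fed liver, 0.98, -0.82 and 0.82 at 12 hours, 0.69, 0.75 and -0.43 at 24 hours, and 0.96, 1.62 and 1.45 at 72 hours. All 72-hour arrays lay above all fed arrays, at 2.30-fold (log2 fold change 1.20, SE 0.46, unadjusted p = 0.0251, adjusted p = 1.00), and without the low-signal arrays it passed (SE 0.18, adjusted p = 0.0168). The other Dnajc3 probe, 7560, which was brighter in fed liver, showed 0.01, -0.17 and -0.23 at 72 hours and -0.45, 0.15 and 0.26 in fed liver, a log2 fold change of -0.12 ± 0.23, so the 2 probes of this gene disagree. Dnajb9 and Dnajb11, ER partners of Hspa5, passed at no time. With all arrays the log2 fold changes of Dnajb9 were -0.49, -0.04 and 0.19 at 12, 24 and 72 hours, and those of Dnajb11 0.14, 0.16 and 0.08. Without the low-signal arrays they were 0.16, 0.65 and 0.19 for Dnajb9, and 0.08, 0.17 and 0.08 for Dnajb11.

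**Figure D4:**
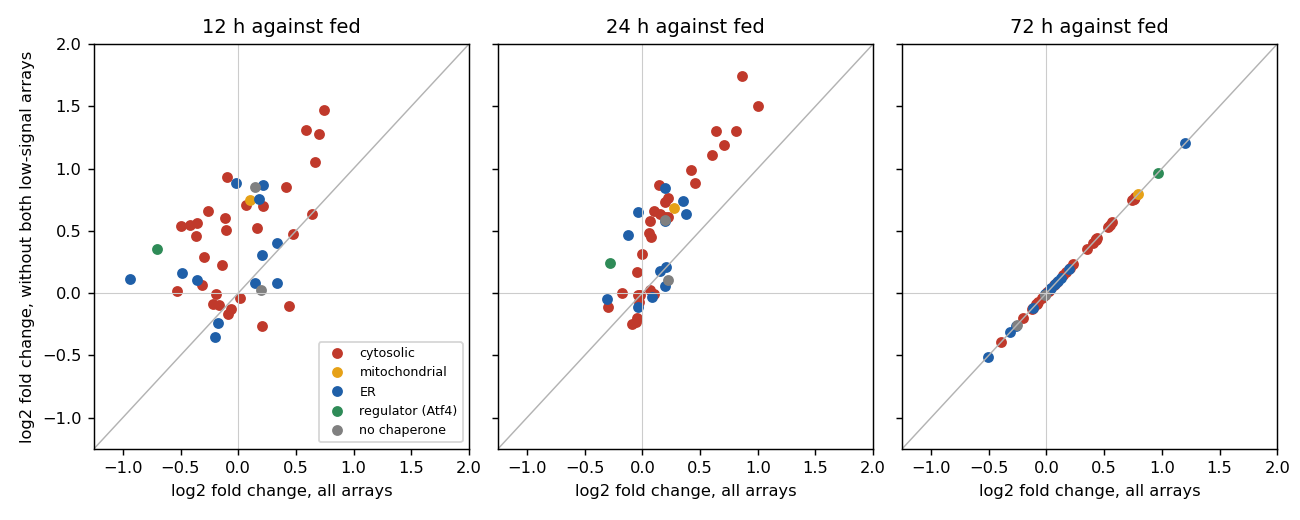
Log2 fold change against fed liver of 46 of the 47 probes with all arrays (x axis) and without both low-signal arrays (y axis), at 12, 24 and 72 hours, coloured by compartment; the diagonal marks equal values. Most cytosolic points lie above the diagonal at 12 and 24 hours, and the 72-hour points lie on it, since no 72-hour array was left out.

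Atf4, the transcription factor translated when eIF2alpha is phosphorylated, was the single regulator with a probe, and no probe carried Xbp1, Ddit3, Atf6 or Herpud names. It measured 0.84 and 0.02 on the fed arrays with a value, 0.99, -2.40 and 0.58 at 12 hours, 0.67, 0.67 and -0.89 at 24 hours, and 1.41, 2.00 and 0.76 at 72 hours. Replicate 3 at 72 hours lay within the fed range. The log2 fold changes were -0.70, -0.28 and 0.96 (SE 0.91) with all arrays and 0.36, 0.24 and 0.96 without the low-signal arrays (adjusted p at least 0.233). Of the 2 genes that only share a name, Hacd3 rose 1.81-fold at 12 hours without the low-signal arrays (adjusted p = 0.0471; log2 fold change 0.15 with all arrays), and Hspg2 had log2 fold changes between -0.26 and 0.23.

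Between 24 and 72 hours of fasting no probe was called with all arrays, for chaperones (0 of 47) or any other probe (background 0%), while 3.42% of all probes and 0 of the chaperones had an unadjusted p under 0.05. Once both low-signal arrays were dropped, 3 of 47 probes were lower at 72 than at 24 hours (background 0.91%). Hsp90aa1 fell by 1.31 ± 0.22 on the log2 scale (adjusted p = 0.032), Stip1 at probe 3767 by 1.13 ± 0.18 (adjusted p = 0.0303) and Dnaja1 by 0.97 ± 0.18 (adjusted p = 0.0366). Hsph1 missed the threshold with a log2 difference of -1.30 ± 0.29 (adjusted p = 0.0555). The 24- and 72-hour arrays had been quantified on different days, and day and time cannot be told apart here. With day as a block, the direction turned, and 10 of 46 probes were higher at 72 hours (background 4.14%).

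For 8 genes there were 2 probes. With all arrays, both probes differed from fed liver in the same direction for 4 of the 8 genes at each time, and without the low-signal arrays for 6, 6 and 4. The widest gap was that of Dnajc3 at 72 hours, 1.32 log2 units, and the median gap at that time was 0.52.

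Other genes of these pathways were read from lists. In a list of heat shock factor 1 (Hsf1) and co-chaperones, 11 genes had 13 probes, of which 0 passed at any time with all arrays. Whether this factor acts on the genes listed was not tested. Without the low-signal arrays Fkbp5, an immunophilin that binds HSP90, rose by 2.34, 2.42 and 2.13 on the log2 scale at 12, 24 and 72 hours (adjusted p = 0.0123, 0.00252 and 0.00419, limma), and Fkbp4, its close relative, fell by 0.58 on the log2 scale at 24 hours (adjusted p = 0.0213). With all arrays these differences were 1.55, 2.03, 2.13 and -0.44 and did not pass. The called share of the 13 probes was 7.69%, 15.4% and 7.69% at 12, 24 and 72 hours, beside 2.59%, 8.81% and 0.836% of all probes, and rests on these 2 genes, while the median was -0.07, 0.03 and 0.03. Of 17 other genes of the unfolded-protein response (19 probes), 0 passed with all arrays, and without the low-signal arrays Derl1 and Syvn1, both part of the machinery that removes misfolded ER proteins, rose at 24 hours (log2 fold changes 0.86 and 0.97, against 0.17 and 0.58 with all arrays). Their share of the 19 probes, 10.5%, is near the background of 8.81%, and at 12 and 72 hours 0 were called. Of 11 genes of mitochondrial proteases and import (13 probes), again 0 passed with all arrays. With the low-signal arrays left out, 1 rose at each time, namely Clpx, a subunit of the matrix protease ClpXP, at 12 and 24 hours (log2 fold changes 2.30 and 1.63) and the import receptor Tomm20 at 72 hours (0.91 at probe 2726). The second Tomm20 probe, 7009, had a log2 fold change of -0.18 at that time (adjusted p = 0.589), so its probes disagree. Clpx was at 1.61 at 72 hours without the low-signal arrays and just missed the threshold (adjusted p = 0.0573, limma). With all arrays the log2 fold changes of Clpx were 1.62, 0.90 and 1.61 at 12, 24 and 72 hours. The called share was 7.69% of the 13 probes at each time, beside 2.59%, 8.81% and 0.836% of all probes.

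Of the hepatocyte markers listed, 2 genes had a probe. Both Apoa1 and Ttr, plasma proteins of the hepatocyte, were well above background on all 12 arrays. Ttr fell by 1.35 on the log2 scale at 72 hours without the low-signal arrays (adjusted p = 0.0418, limma), and the same difference with all arrays had an adjusted p of 0.784. Apoa1 had a log2 fold change of 0.15 at 72 hours in both fits and did not pass. Of 9 probes of macrophage and leukocyte markers, 5 of endothelial and stellate markers and 2 of erythroid markers, 0 passed in any comparison with fed liver, with or without the low-signal arrays. Their median log2 fold changes with all arrays lay between -0.30 and 0.08. Without the low-signal arrays the erythroid median was -0.61, -0.51 and -0.14 at 12, 24 and 72 hours. The medians of the other lists then lay between -0.15 and -0.05. In whole liver, a lower number of cells of a kind cannot be told apart from less RNA per cell. Hsp90aa1, Hspa4, Tcp1, Cct4, Dnajc7, Dnaja2, Hacd3, the second probes of Stip1, Dnajb6 and Dnajc3, and the genes picked from the other lists were named after their values had been seen.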

How the data were processed

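Arrays were 12 Agilent two-colour mouse oligonucleotide arrays, grouped by title. The deposited intensities are, per the file headers, the scanner software's median brightness of each spot and its surroundings in both channels, not normalized. They also hold log10 ratios, background-subtracted and dye-normalized by the authors' scanner software. The deposited value table repeats these log10 values with the sign turned (243360 values, largest difference 4.92e-08), with column medians between -0.0163 and 0.00474.

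From 21446 spots, 1075 controls and 91 retired spots were dropped, leaving 20280 probes. Intensities were background-corrected by normexp (offset 50), made equal in distribution over the 24 channels (quantile normalization) and turned into log2 ratios of sample to reference. Outlier spots were set to missing (24.7% on fed replicate 2, 14.1% on fed replicate 3). A probe was tested when its sample signal exceeded background clearly, by the scanner's own flag, on every array of at least 1 group. The test was limma 3.58.1 in R 4.3.3 (lmFit, eBayes) on the 4 groups, with Benjamini-Hochberg adjustment over all probes tested. A probe was called at adjusted p under 0.05 and at least 1.4-fold. The fit was tested on simulated data. Signal, and the number of 3 arrays per group, limit the precision.

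Named were called members, those of the study's stress table (11 genes, of which Hspb8 and Hspd1 had no matching probe), and the 2 highest and 2 lowest genes per compartment by mean log2 fold change, at the probe brightest in fed liver. The members, the lists and the alternatives, among them leaving out both low-signal arrays, were chosen with earlier results of these data known. Among the mitochondrial chaperones, 1 probe counts in the totals but is not reported here. Promoters came from RefSeq (GRCm38.p6).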

Additional observations from a re-analysis of the deposited data

How the results depend on the processing

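With all arrays weighted equally, 0 chaperone probes were called at 12, 24 or 72 hours or between 24 and 72 hours. This count was the same with loess, subtracted background, the scanner software's log ratio, the sample channel alone, outlier spots kept, no filter on dim probes and each array left out in turn (lowest and highest count 0). It became 13, 17, 5 and 7 with array weights (9.53%, 10.5% and 4.11% of all probes, and 856 of 20087). When both low-signal arrays were dropped it was 6, 13, 1 and 3 (2.59%, 8.81% and 0.836% of all probes, and 262 of 20109). Blocking on the quantification day gave 16, 5, 0 and 10 of 46 (4543, 2393, 4 and 1862 of all 19014), of which those against fed were all lower. The 5 of 46 at 24 hours (10.9%) lie near the share of all probes called in either direction. At an unadjusted p under 0.01 and 1.4-fold, the count was 0 at 12, 24 and 72 hours (all probes: 132, 129 and 86). With array weights it became 13, 16 and 10 (all probes: 1921 and 2097 of 20110, and 1113 of 20081). When both low-signal arrays were dropped it was 11, 16 and 6 (all probes: 1431 of 20130, 2164 of 20132 and 801 of 20104). With the day as a block it was 15, 8 and 3 of 46 (all probes: 4224, 3054 and 377 of 19014). The 8 of 46 lie near the share of all probes. It was 1 at 12 hours with loess, and 5 of 46 at 72 hours within the day (all probes: 639 of 19185). With an array left out it ranged from 0 to 0, 0 to 3 and 0 to 1. The 3 came without replicate 3 at 24 hours and the 1 without replicate 2 at 12 hours.

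The cytosolic and ER medians at 12 hours were -0.81 and -0.65 with the day as a block and -0.85 and -0.52 within the day, which is 1 array against 1 and has no test, and at 24 hours -0.81 and -0.72 with the block and -0.63 and -0.57 within the day. The cytosolic median at 12 hours was 0.51 once both low-signal arrays had been dropped. In the sample channel alone the cytosolic median at 72 hours was 0.0195. With an array left out, the cytosolic medians ranged from -0.23 to 0.51, -0.01 to 0.60 and 0.0881 to 0.39 at 12, 24 and 72 hours, and the ER medians from -0.13 to 0.17, 0.02 to 0.33 and -0.12 to 0.11. The cytosolic extremes came without replicate 1 and replicate 2 at 12 hours, without replicates 2 and 3 at 24 hours, and without fed replicate 3 and replicate 1 at 72 hours. Of 1065 values of the 16 genes named by rule, 114 changed sign with neither value called, and 27 were called in the alternative alone. The cause of these changes was not tested.

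The replicate numbers did not pair the arrays (r of deviations of same-numbered arrays from -0.65 to 0.63, and 2 of 12 arrays correlated best with their own number). With the replicate number as a block, 0 probes were called in each comparison, and the cytosolic medians were -0.10, 0.10 and 0.21. Within a quantification day no count could be had at 12 or 24 hours, and no day held both 24- and 72-hour arrays. Signal over background was lowest on both arrays that were left out, and 3 arrays per group limit what can be detected.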
